A study of Homo sapiens with 14 samples.

Results

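Day 11 cultures that had 5 µM of CHIR99021 (CHIR) from day 4 were set against day 11 cultures that stayed at 0.7 µM. The comparison rests on 4 of the 14 RNA-seq libraries of the series, 2 at each concentration, chosen by their labels alone. H9 (WA-09), the human embryonic stem cell line from which every culture came, was being differentiated into dopamine neurons of the midbrain; the labels call them neural progenitors derived from these cells. The rest of the series holds stem cells, day 11 cultures at 3 and 7.5 µM, and 2 later days of the 7.5 µM protocol. The groups compared shared every other agent that the labels name. Both had SHH (Sonic hedgehog protein), SB and LDN, which block TGF-beta and BMP receptors, and CHIR at 0.7 µM up to day 3, with a Rock inhibitor at the start. SHH, LDN and SB were withdrawn on day 7. From day 10 both groups were in a medium with BDNF, GDNF, ascorbic acid, TGF-beta 3, dibutyryl cAMP and CHIR at 3 µM. The groups therefore differed in their CHIR from day 4 to day 9 or day 10 (the records give both), and not in that of their last day. Nothing says that the 2 libraries of a group came from separate cultures, so the spread behind every p-value is that of the libraries and may be technical.

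CHIR blocks GSK3, the kinase that marks beta-catenin for destruction, and so switches on the WNT pathway inside the cell without a WNT protein. Beta-catenin then joins TCF/LEF proteins on DNA and turns on target genes, many of which code for inhibitors that feed back on the pathway. In the embryo, WNT signals give the neural plate its posterior and dorsal characters, with forebrain where they are low and midbrain and hindbrain where they are higher. Hedgehog protein from the floor plate, a strip of cells along the ventral midline, gives the ventral characters, and midbrain dopamine neurons arise from the floor plate of the midbrain.

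Reads counted to genes came to 20.5 and 44.8 M at 0.7 µM in replicates 1 and 2, and to 20.8 and 34.2 M at 5 µM. Levels are given as CPM (counts scaled to library size by TMM), and where 2 values stand together replicate 1 comes first (n = 2 libraries for every group). The replicates differed more than the concentrations did. The median gene differed by 0.985 on the log2 scale between the 2 replicates at 0.7 µM and by 0.838 at 5 µM, against 0.390 between the concentrations in replicate 1 and 0.350 in replicate 2. The replicate difference went the same way in both groups, with a correlation across genes of 0.805, and the test therefore compared the concentrations within each replicate number. Mitochondrial genes took 6.03% and 3.55% of the counts at 0.7 µM and 8.69% and 3.57% at 5 µM. The labelled cell type fitted its markers in part. SOX2 stood at 198 and 431 CPM at 0.7 µM and 155 and 272 CPM at 5 µM. It does not tell these cultures from the stem cells, where it stood at 237 ± 41.5 CPM (SD). NES averaged 1603 CPM at 0.7 µM and 1001 CPM at 5 µM, against 388 ± 128 CPM in the stem cells. MSI1 averaged 174 and 111 CPM, against 41.2 ± 6.47 CPM. POU5F1, the pluripotency factor, averaged 0.863 CPM at 0.7 µM and 1.05 CPM at 5 µM, against 443 ± 43.6 CPM in the stem cells. PAX6, a marker of most neural progenitors, was low, at 11.2 and 8.18 CPM at 0.7 µM and 0.225 and 2.10 CPM at 5 µM.

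Of 18709 genes tested by edgeR's quasi-likelihood method, 211 passed at a Benjamini-Hochberg adjusted p of 0.05 (1.13%). Of these, 132 rose at 5 µM (0.706%) and 79 fell (0.422%). The 2 libraries at 5 µM lay wholly above or below the 2 at 0.7 µM in 206 of the 211 genes. Over all genes tested, 9.17% lay wholly above and 8.28% wholly below. The changes were large, since 98 of the higher and 46 of the lower genes differed more than 4-fold and the smallest change that passed was 1.15 on the log2 scale. The median log2 fold change of all genes tested was 0.02. At an unadjusted p under 0.05, 4.91% of genes were higher and 5.21% lower. How many genes passed depended on the libraries. Leaving out replicate 1 left 50 genes (0.7 µM) or 60 (5 µM), and leaving out replicate 2 left 179 (0.7 µM) or 95 (5 µM). Without the replicate number in the model, 0 genes passed in edgeR (567 at an unadjusted p under 0.05).

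**Figure D1:**
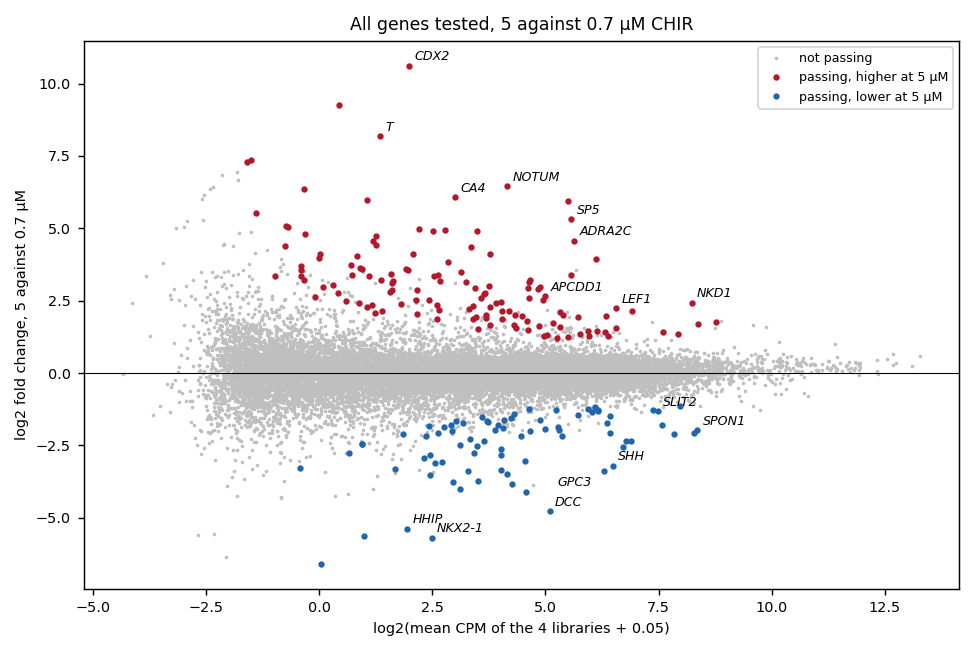
Log2 fold change at 5 against 0.7 µM CHIR for the 18709 genes tested (vertical axis) against log2 of the mean CPM of the 4 libraries plus 0.05 (horizontal axis). The 132 genes that passed as higher are red, the 79 that passed as lower are blue and the rest are grey; CDX2 and T, with 0 and 1 counts at 0.7 µM, are drawn at fitted values that depend on the prior count.

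Among the genes that passed, the 2 replicate pairs gave the same direction for all 132 higher and all 79 lower genes, which the test itself favours. The size of the difference often varied between the pairs. PAX6 differed by −5.28 in replicate 1 and −1.93 in replicate 2 on the log2 scale, and RYR2, the calcium release channel of muscle and neurons, by −5.89 and −2.23. In ADRA2C, an adrenergic receptor, the differences were 4.50 and 4.59.

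**Figure D2:**
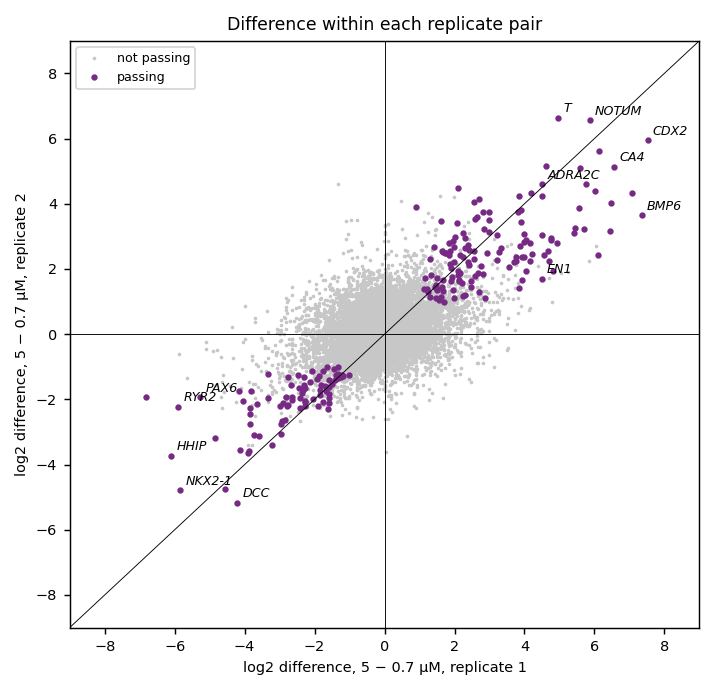
Log2 difference between 5 and 0.7 µM within replicate 1 (horizontal axis) and within replicate 2 (vertical axis) for all genes tested, with the 211 that passed in purple and a line of equality. Every gene that passed lies in the lower left or upper right quadrant, and BMP6, HHIP and PAX6 lie far from the line.

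The 4 genes given as markers of this comparison changed by more than 4 on the log2 scale, NOTUM and CA4 upward and DCC and HHIP downward. NOTUM (ENSG00000185269, chromosome 17), a secreted enzyme that inactivates WNT proteins, stood at 0.583 and 0.282 CPM at 0.7 µM and at 37.6 and 32.9 CPM at 5 µM. CA4 (ENSG00000167434, chromosome 17), a carbonic anhydrase anchored at the cell surface, stood at 0.146 and 0.260 CPM at 0.7 µM and at 19.9 and 11.4 CPM at 5 µM. Both genes were near 0 in the 2 libraries at 0.7 µM and well apart from them at 5 µM. Their log2 fold changes were 6.46 (standard error 0.47, edgeR adjusted p = 0.000516) and 6.09 (0.50, 0.000956). DCC (ENSG00000187323, chromosome 18), the netrin receptor that guides growing axons, stood at 37.5 and 94.2 CPM at 0.7 µM and at 1.97 and 2.56 CPM at 5 µM. HHIP (ENSG00000164161, chromosome 4), which binds hedgehog proteins and restrains them, stood at 12 and 2.93 CPM at 0.7 µM and at 0.113 and 0.162 CPM at 5 µM. The groups did not overlap in either gene, and at 5 µM HHIP was left with 8 counts in the 2 libraries. DCC fell by 4.76 (standard error 0.56, edgeR adjusted p = 0.00415), and HHIP by 5.37 (0.73, 0.00800). HHIP missed the threshold without 0.7 µM replicate 1 (−4.33) or 5 µM replicate 1 (−4.83), while the other 3 passed without any one library. Exons of DCC and HHIP overlap those of a gene on the other strand (LINC01917 and HHIP-AS1), and whether the counting used strand is not given in the sources used here.

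**Figure D3:**
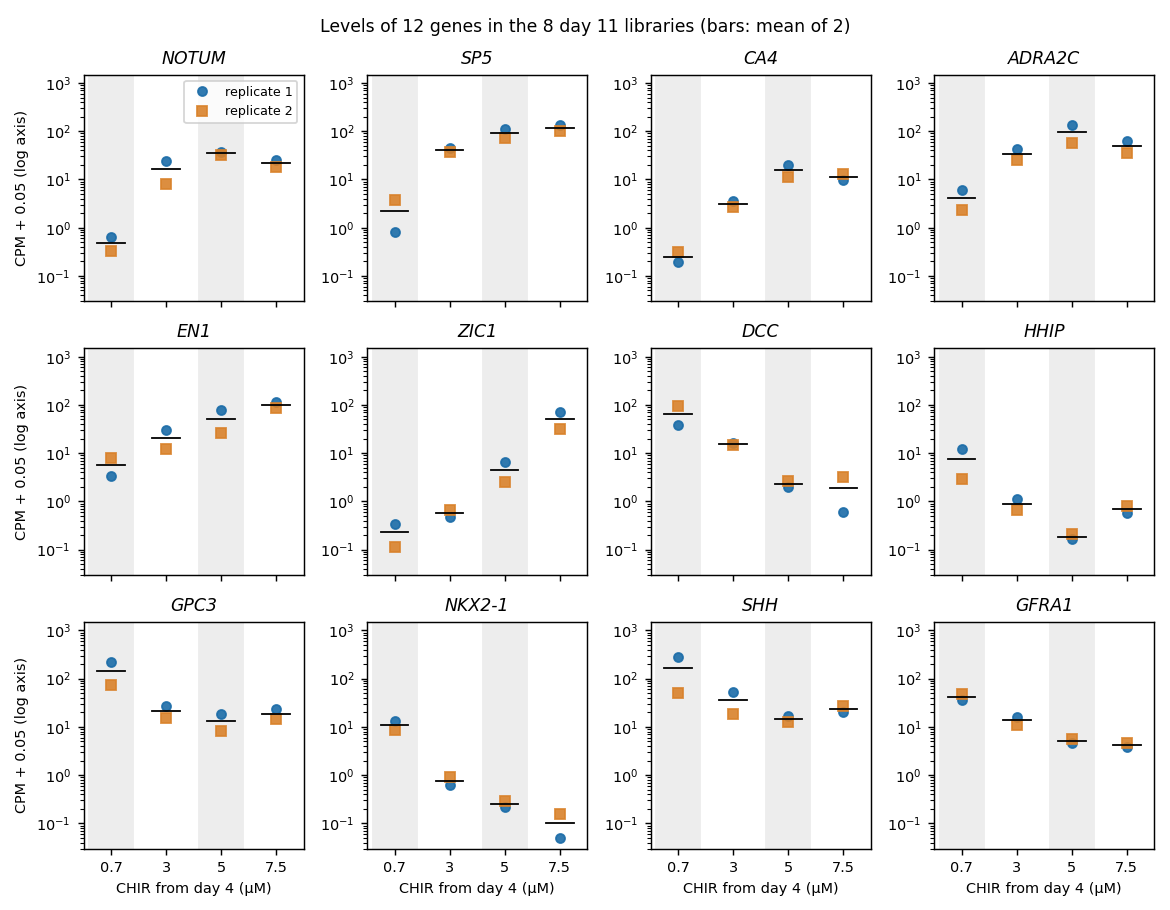
CPM plus 0.05 (log axis) of 12 genes in the 8 day 11 libraries, by CHIR concentration from day 4; circles are replicate 1, squares replicate 2, bars the mean of 2, and the groups compared are shaded. NOTUM, SP5, CA4, ADRA2C, EN1 and ZIC1 are higher at 5 than at 0.7 µM in both replicates, and DCC, HHIP, GPC3, NKX2-1, SHH and GFRA1 are lower.

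SP5 and LEF1 rose and TCF7L2 fell among the nuclear effectors and transcriptional targets of WNT. These were 2 of 17 genes higher and 1 lower, with 9 positive and 8 negative values and a median log2 fold change of 0.05. SP5, a transcription factor induced directly by the pathway, stood at 0.777 and 3.62 CPM at 0.7 µM and at 112 and 73.8 CPM at 5 µM. LEF1, a DNA-binding partner of beta-catenin, stood at 23.0 and 44.9 CPM at 0.7 µM and at 147 and 165 CPM at 5 µM. The 2 groups were clearly apart in both genes, by 5.31 ± 0.59 for SP5 and 2.25 ± 0.28 for LEF1 (log2 fold change ± SE, edgeR adjusted p = 0.00404 and 0.00514). TCF7L2, another partner of beta-catenin, went the other way, from 85.8 and 166 CPM to 28.4 and 46.1 CPM, a fall by 1.74 (edgeR adjusted p = 0.0352). CTNNB1, beta-catenin itself, did not pass (0.27). Nor did TCF7 (0.17), TCF7L1 (−0.41), MYC (−1.14) or CCND1 (0.91). MYC and CCND1 lay apart between the groups, with CCND1, a cyclin of the G1 phase, at 57.8 and 76.4 CPM at 0.7 µM and 131 and 121 CPM at 5 µM. LEF1 missed the threshold without 0.7 µM replicate 1 (1.92), and TCF7L2 without any one of the 4 libraries (−2.03 to −1.37).

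The promoters of SP5 and DKK1 (a secreted WNT inhibitor) are shown because they are 2 of the WNT genes that rose and the windows carry letters of the TCF/LEF site. The windows run from 250 bases before to 50 after the start of the gene, from RefSeq on GRCh38.p14, plus strand: chr2:170715087-170715386 for SP5 and chr10:52314031-52314330 for DKK1. Capitals mark CTTTGA or CTTTGT, or the same letters on the other strand (TCAAAG or ACAAAG), and no 2 matches overlap.
SP5: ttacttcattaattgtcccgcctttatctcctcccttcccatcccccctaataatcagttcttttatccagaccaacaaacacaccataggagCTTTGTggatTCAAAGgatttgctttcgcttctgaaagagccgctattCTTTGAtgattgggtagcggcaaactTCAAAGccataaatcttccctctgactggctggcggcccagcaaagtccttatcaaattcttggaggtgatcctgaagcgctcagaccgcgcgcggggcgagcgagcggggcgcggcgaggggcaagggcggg
DKK1: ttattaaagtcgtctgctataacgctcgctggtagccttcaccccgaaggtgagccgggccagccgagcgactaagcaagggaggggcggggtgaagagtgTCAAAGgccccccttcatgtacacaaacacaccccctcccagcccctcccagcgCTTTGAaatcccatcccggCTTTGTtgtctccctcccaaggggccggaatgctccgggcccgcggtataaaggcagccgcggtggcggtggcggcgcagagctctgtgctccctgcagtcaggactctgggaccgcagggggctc
SP5 has 4 matches, whose first bases lie 157, 147, 109 and 83 bases before the start, and DKK1 has 3, at 149, 95 and 76 bases before it. Of 35116 promoter windows of this length in the table, 26.2% hold at least 1 match and 5.33% hold 2 or more. Over the 12057 tested genes with a window the shares are 18.6% and 2.75%. They are 26.7% and 4.65% over 86 genes that passed as higher, and 15.9% and 3.17% over 63 that passed as lower. Of 16 genes of the WNT lists and markers that passed, 10 had a window in the table, and these 2 held a match. A match in these letters is no measurement of binding.

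Most of the feedback inhibitors of WNT that passed were higher at 5 µM. Of 19 tested, 6 rose and 1 fell, the median log2 fold change was 1.52, and 16 of the 19 values were positive. AXIN2, a scaffold of the complex that destroys beta-catenin, stood at 24.7 and 69.0 CPM at 0.7 µM and at 148 and 239 CPM at 5 µM. NKD1, which acts on the pathway inside the cell, stood at 80.4 and 109 CPM at 0.7 µM and at 473 and 540 CPM at 5 µM. DKK1 went from 1.75 and 20.7 CPM to 78.0 and 178 CPM. In each of them both libraries at 5 µM were above both at 0.7 µM, and the log2 fold changes were 2.13, 2.43 and 3.93 (edgeR adjusted p = 0.0128, 0.00404 and 0.00849). APCDD1, a membrane inhibitor of WNT, rose by 2.66 (from 11.7 and 6.18 CPM to 55.1 and 54.2 CPM), and SHISA2, which retains WNT and FGF receptors inside the cell, by 1.74; NOTUM is given above. The gene that fell was SFRP1, a secreted protein that binds WNTs, from 164 and 307 CPM to 68.7 and 125 CPM (−1.28, edgeR adjusted p = 0.0352). Of the members that did not pass, KREMEN2 (1.82), FRZB (1.18) and ZNRF3 (0.84) lay apart between the groups, while RNF43 (1.74) and WIF1 (1.09) overlapped. AXIN2 missed the threshold without 0.7 µM replicate 1 (1.67) or without either library at 5 µM (2.12 and 2.14), and NKD1 without 0.7 µM replicate 1 (2.28). The count of 6 became 3 or 4 when replicate 1 at 0.7 or at 5 µM was left out, and SFRP1 was not called without any one library.

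Among ligands and receptors of the pathway 3 genes passed. Of 13 WNT ligands tested of 19 in the files, 1 rose and none fell (median 0.39). That gene was WNT4, at 5.83 and 3.60 CPM at 0.7 µM and 40.1 and 15.6 CPM at 5 µM (2.45 ± 0.30, edgeR adjusted p = 0.00514; missed without 0.7 µM replicate 1, 2.28). WNT1, the ligand of the midbrain-hindbrain boundary, had 17 counts at 0.7 µM and 3 at 5 µM, too few to be tested. WNT5A, a ligand that mostly acts outside the beta-catenin branch, stood at 47.1 and 23.7 CPM at 0.7 µM and 10.3 and 16.7 CPM at 5 µM and did not pass (−1.35). Among receptors, R-spondins and LGR receptors, 2 of 23 rose and none fell (median 0.32). FZD10, a WNT receptor, stood at 3.64 and 4.84 CPM at 0.7 µM and at 23.9 and 12 CPM at 5 µM (1.92). RSPO1, which protects WNT receptors from removal, stood at 0.291 and 0.217 CPM and at 1.35 and 1.72 CPM (2.65). Both were higher in every library at 5 µM, with edgeR adjusted p = 0.0408 and 0.0302. FZD10 missed the threshold without 0.7 µM replicate 1 (1.35) or without either library at 5 µM (1.67 and 2.19), and RSPO1 without any one of the 4 (2.20 to 2.97). LGR5, a receptor for R-spondins, had 1 count at 0.7 µM and 6 at 5 µM, a ratio of 7.29 with a 95% interval of 0.884 to 335 (counting error only), against 222 counts at 7.5 µM.

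In the hedgehog list 3 genes fell, the ligand SHH, its binding protein HHIP, and SCUBE1. Of 18 tested none rose, 8 values were positive and 10 negative, and the median was −0.39. SHH stood at 278 and 51.2 CPM at 0.7 µM and at 16.8 and 12.4 CPM at 5 µM. The libraries at 0.7 µM differed more than 5-fold between themselves, and both lay above the 2 at 5 µM. SHH fell by 3.20 (standard error 0.58, edgeR adjusted p = 0.0305). SCUBE1, a relative of the SCUBE2 protein that helps release hedgehog from cells, fell by 2.94, from 9.76 and 7.94 CPM to 0.619 and 1.59 CPM. DISP1, which releases hedgehog from the cell, went the other way without passing, at 14.4 and 13 CPM at 0.7 µM and 24.7 and 23.9 CPM at 5 µM (0.82, edgeR adjusted p = 0.294). The co-receptors BOC (−0.39), CDON (−0.38) and GAS1 (−0.97) did not pass. The libraries at 5 µM lay wholly above in 4 of the 18 genes (9.17% over all genes) and wholly below in 7 (8.28%). GLI2 (1.15), GLI3 (0.75) and FOXF2 (2.75) were among those above, without passing. The receptor PTCH1 and the transcription factor GLI1 did not pass. PTCH1 stood at 155 and 473 CPM at 0.7 µM and 139 and 280 CPM at 5 µM (−0.51 ± 0.33), and GLI1 at 5.29 and 4.86 CPM and 9.97 and 4.50 CPM (0.37 ± 0.44), so the groups overlapped in both. SHH missed the threshold without 0.7 µM replicate 1 (−2.07) or 5 µM replicate 1 (−2.80). SCUBE1 missed it without either of these (−2.72 and −2.32) or without 0.7 µM replicate 2 (−3.18). No gene of the list passed without 0.7 µM replicate 1 or without 5 µM replicate 1. In bulk RNA, fewer cells of a type and less RNA per cell cannot be told apart.

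Several secreted or surface proteins of the floor plate fell, while FOXA2 and LMX1A did not pass. Of 11 tested, 5 fell and none rose (median −1.65). CORIN, a protease of the floor plate surface, stood at 51.7 and 14.3 CPM at 0.7 µM and at 3.83 and 1.62 CPM at 5 µM (−3.50, edgeR adjusted p = 0.0207). SPON1 (F-spondin), a secreted adhesion protein, stood at 416 and 628 CPM at 0.7 µM and at 135 and 126 CPM at 5 µM (−1.97, edgeR adjusted p = 0.00809). NTN1, the axon guidance protein that DCC binds, stood at 301 and 77.0 CPM at 0.7 µM and at 30.1 and 33.0 CPM at 5 µM (−2.33, edgeR adjusted p = 0.0376). All 3 genes were lower in both libraries at 5 µM than in either at 0.7 µM. SHH, given above, also counts among the 5. FOXA2 and LMX1A, the transcription factors that define the midbrain floor plate, stood at 210 and 70.4 CPM and at 80.6 and 41.1 CPM at 0.7 µM. At 5 µM they stood at 125 and 57.9 CPM and at 44.7 and 33.5 CPM, so that the groups overlapped (−0.54 ± 0.30 and −0.59 ± 0.29, neither passing). MSX1, a homeobox gene of the dorsal and midbrain midline, was at 21.0 and 9.72 CPM and at 112 and 33.5 CPM and did not pass (2.11, edgeR adjusted p = 0.0819). CORIN missed the threshold without 0.7 µM replicate 1 (−2.87) or without either library at 5 µM (−3.64 and −3.39), and SPON1 without either library at 5 µM (−2.17 and −1.78). The count of 5 became 1 or 0 when replicate 1 at 0.7 or at 5 µM was left out, and 2 without 5 µM replicate 2.

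In the list of ventral NKX homeobox genes and OLIG2, 1 of 5 tested fell and none rose (median −3.42). NKX2-1, the marker of the ventral forebrain and hypothalamus, stood at 13.4 and 8.44 CPM at 0.7 µM and at 0.169 and 0.242 CPM at 5 µM, or 665 counts against 12. It fell by 5.68 (standard error 0.67, edgeR adjusted p = 0.00415), a call kept without any one library. Its exons overlap those of NKX2-1-AS1 on the other strand. NKX2-2, a factor of the ventral neural tube, stood at 3.35 and 0.608 CPM and at 0.0563 and 0.162 CPM and did not pass (−3.42, edgeR adjusted p = 0.101). NKX6-1, a factor of ventral progenitors over most of the neural tube, did not pass either (0.75), at 11.7 and 12.6 CPM and at 24.4 and 17.5 CPM.

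EN1 and FGF17 rose among genes of the midbrain and of its boundary with the hindbrain, an organizer that secretes WNT1 and FGF8. Of 12 tested, 2 rose and none fell, 11 values were positive and the median was 1.32. EN1, a homeobox factor of the midbrain and anterior hindbrain, stood at 3.35 and 8.01 CPM at 0.7 µM and at 76.8 and 26.3 CPM at 5 µM (2.90 ± 0.57, edgeR adjusted p = 0.0421). FGF17, a signal of the boundary, stood at 0.728 and 0.369 CPM at 0.7 µM and at 37.6 and 6.30 CPM at 5 µM (4.92 ± 0.56, edgeR adjusted p = 0.00404). Replicate 1 was the higher of the 2 libraries at 5 µM in both genes. FGF8 stood at 3.01 and 2.78 CPM and at 21.7 and 4.31 CPM and did not pass (1.56). EN2, the relative of EN1, had 1 count at 0.7 µM and 22 at 5 µM, a ratio of 26.7 with an interval of 4.32 to 1103, and did not pass. PAX5 (2.18), PAX2 (1.21), OTX1 (0.96) and OTX2 (0.47) lay apart between the groups without passing, and GBX2, a factor of the anterior hindbrain, overlapped (−0.10). Leaving out replicate 1 at 0.7 µM (1.96) or at 5 µM (2.25) ended the call of EN1, and FGF17 missed the threshold without 0.7 µM replicate 1 (4.39). The count of 2 became 0 or 1 when replicate 1 at 0.7 or at 5 µM was left out, and 4 without 0.7 µM replicate 2.

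FGF signalling leaves its own feedback genes as a trace. None of 16 receptors and feedback genes passed, but 13 values were positive and 3 negative, with a median of 1.01. At an unadjusted edgeR p under 0.05, 8 of the 16 were higher (4.91% over all genes) and 2 lower (5.21%). ETV4, a transcription factor induced by FGF, came nearest, at 1.41 and 4.75 CPM at 0.7 µM and 12.4 and 15.9 CPM at 5 µM (2.26, edgeR adjusted p = 0.0666). DUSP6, a phosphatase that switches off the ERK kinases, stood at 21.0 and 57.3 CPM and at 80.0 and 84.3 CPM (1.14). SPRY4, an inhibitor of receptor signalling, stood at 0.486 and 15.8 CPM and at 3.77 and 34.7 CPM (1.52), so that its groups overlapped. By DESeq2, 3 genes of the list passed as higher and 1 as lower, and without 0.7 µM replicate 2 edgeR called 2 as higher. Of 26 hindbrain and HOX genes in the files, 24 were under 1 CPM and 14 of these had 0 counts in all 4 libraries. Of the 5 that could be tested none passed. HOXA2, a marker of the hindbrain, was among those at 0.

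Telencephalic genes showed 1 member higher and none lower among 10 tested (median 0.23). DLX5, which also marks other tissues than the forebrain, stood at 0.243 and 0.434 CPM and at 1.58 and 2.91 CPM (2.75, edgeR adjusted p = 0.0425; missed without any one of the 4 libraries, 2.49 to 2.97). SIX3 (−2.30), a gene of the most anterior neural plate, stood under 1 CPM in all 4 libraries and did not pass. In the diencephalic and hypothalamic list 1 of 15 rose and none fell (median −0.31). It was IRX1, an Iroquois homeobox gene expressed well beyond the diencephalon, at 8.98 and 4.86 CPM at 0.7 µM and 32.3 and 26.6 CPM at 5 µM (2.15, edgeR adjusted p = 0.00629; missed without 5 µM replicate 2, 1.93). FEZF2, a forebrain factor, stood at 3.16 and 1.48 CPM and at 0.169 and 0.0808 CPM and did not pass (−4.26, edgeR adjusted p = 0.111).

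Dorsal genes rose in 6 of 15 cases and none fell (median 1.28). ZIC1, a zinc finger factor of the dorsal neural tube, stood at 0.291 and 0.0651 CPM at 0.7 µM and at 6.42 and 2.53 CPM at 5 µM (4.75, edgeR adjusted p = 0.00404). PAX3, which marks dorsal progenitors, stood at 0.0971 and 2.0 CPM and at 6.93 and 19.8 CPM (3.84, edgeR adjusted p = 0.00824). GSX1, a homeobox factor of dorsal interneuron progenitors, stood at 0.0971 and 0.694 CPM and at 14.3 and 12.2 CPM (4.94, edgeR adjusted p = 0.00404). The groups did not overlap in these genes, and each passed without any one library. BMP6 and BMP4, signals of the roof plate and of dorsal ectoderm, rose by 4.35 and 2.17. BMP6 had 0 and 2.17 CPM at 0.7 µM and 10.5 and 27.8 CPM at 5 µM, and BMP4 1.70 and 2.52 CPM and 5.46 and 15.2 CPM. ZIC4 rose by 3.22, and its exons overlap those of ZIC1. PAX7 (1.28), OLIG3 (−0.18) and BMP7 (−0.02) did not pass. BMP6 missed the threshold without 0.7 µM replicate 1 (3.61), BMP4 without any one of the 4 libraries (1.76 to 2.53), and ZIC4 in all but the fit without 5 µM replicate 2 (2.81 to 3.42). The count of 6 became 3 without 0.7 µM replicate 1.

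CDX2 and T, genes of the tail end of the embryo, were at or near 0 at 0.7 µM and present at 5 µM. Of 8 caudal epiblast and mesoderm genes tested of 13 in the files, 2 rose and none fell. The median was 3.52, or 3.22 with the genes of 0 to 3 counts in a group at their bound or ratio. CDX2, a homeobox gene of the posterior body, had 0 counts in both libraries at 0.7 µM and 357 at 5 µM (11.8 and 3.96 CPM), at least 145-fold higher against a floor of 3 counts over the group (edgeR adjusted p = 0.00278). T (brachyury), the mesodermal and tail bud factor, had 1 count at 0.7 µM and 300 at 5 µM (3.49 and 6.41 CPM), a ratio of 364 with an interval of 64.9 to 14441 (edgeR adjusted p = 0.00415). At 3 µM they had 58 and 23 counts and at 7.5 µM 737 and 1080 counts. Both calls were kept without any one library. The levels remained low, since the 13 genes summed to 1.36 and 0.868 CPM at 0.7 µM and to 17.6 and 13.9 CPM at 5 µM. MEOX1, a gene of the paraxial mesoderm, had 0 counts and 16, and TBX6, of the presomitic mesoderm, stood under 1 CPM in all 4 libraries; neither passed. Of 8 pluripotency genes tested none passed (median −0.12), and NANOG and NODAL had 0 counts in all 4 libraries. Not every gene of the list was low beside the stem cells. LIN28A averaged 1453 CPM at 0.7 µM and 1531 CPM at 5 µM, against 1440 ± 338 CPM in the stem cells (SD). SALL4 averaged 120 and 86.6 CPM against 99.2 ± 10.6 CPM, while DPPA4 averaged 81.2 and 61.7 CPM against 1432 ± 151 CPM.

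**Figure D4:**
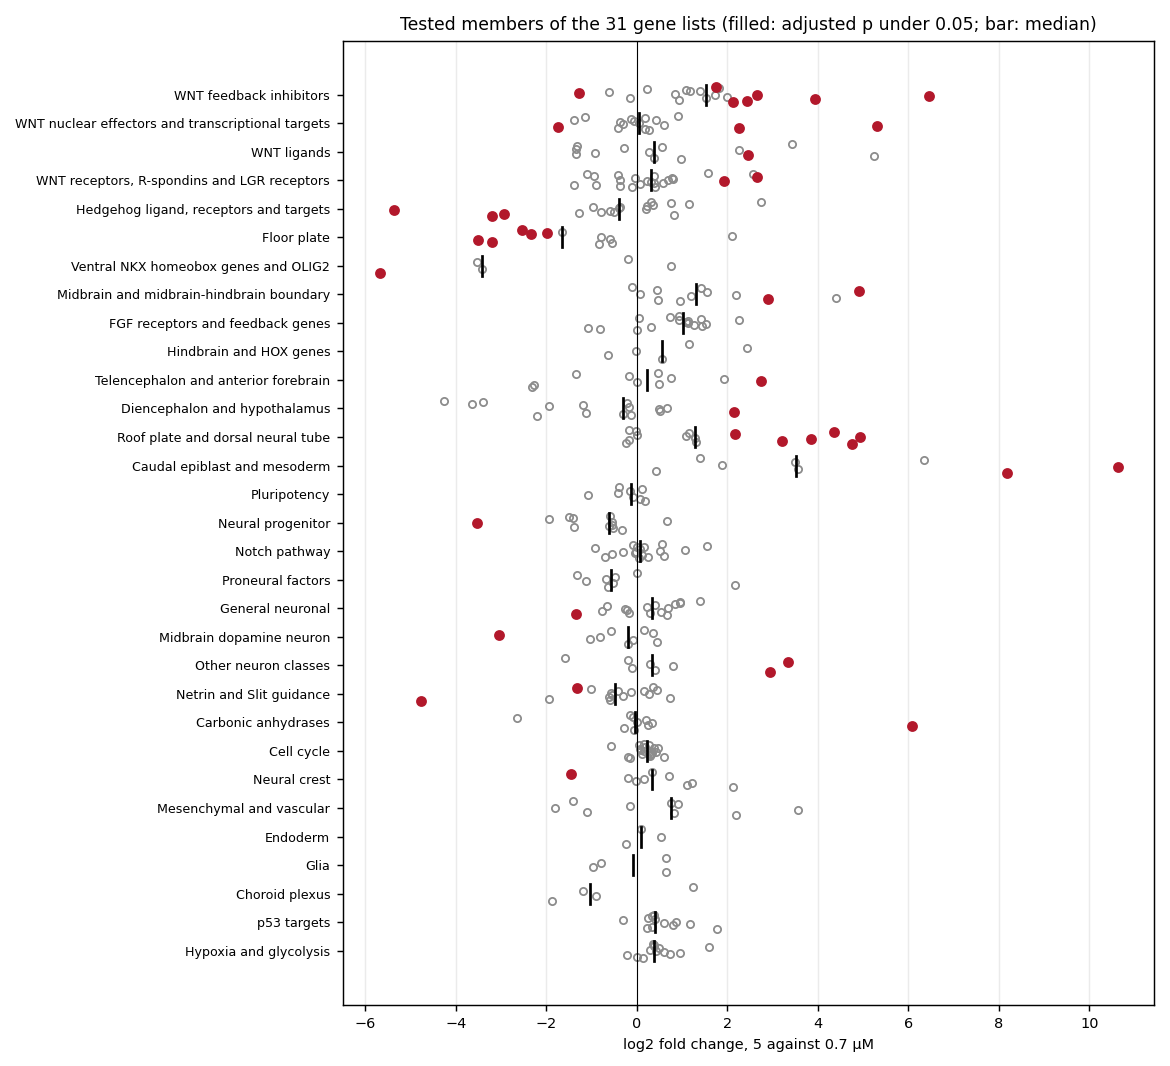
Log2 fold change at 5 against 0.7 µM (horizontal axis) of the tested members of 31 gene lists (rows); filled red points passed, open grey points did not and bars are list medians. On the right, feedback inhibitors of WNT and dorsal genes hold 6 filled points each; on the left, floor plate genes hold 5 and hedgehog genes 3, with SHH in both lists; genes with 0 or 1 counts in a group, such as CDX2 and T, are drawn at fitted values that depend on the prior count.

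Few progenitor and neuronal genes passed. In the neural progenitor list 1 of 12 fell (PAX6, −3.53, edgeR adjusted p = 0.0488) and none rose (median −0.61). PAX6 missed the threshold without 0.7 µM replicate 1 (−2.19) or 5 µM replicate 1 (−2.77), and its exons overlap those of ELP4 and PAUPAR. Of the 12 values 11 were negative and 1 positive. At an unadjusted edgeR p under 0.05, 7 of the 12 were lower (5.21% over all genes) and none higher. The libraries at 5 µM lay wholly below in 4 genes (8.28% over all genes) and wholly above in 1 (9.17%). FABP7 stood at 129 and 39.3 CPM at 0.7 µM and at 37.8 and 8.59 CPM at 5 µM (−1.95, edgeR adjusted p = 0.0573). SOX2 (−0.52), SOX1 (−0.33) and NES (−0.54), the intermediate filament nestin, did not pass either. None of 18 Notch pathway genes and none of 8 proneural factors passed (medians 0.07 and −0.58); LFNG, which modifies Notch receptors, came nearest at 1.55 (edgeR adjusted p = 0.0760). Of 16 general neuronal genes 1 fell, DCX (doublecortin), from 56.8 and 131 CPM to 22.4 and 51.4 CPM (−1.35; missed without any one of the 4 libraries, −1.41 to −1.28), while TUBB3, neuronal tubulin, did not pass (0.66). The list had a median of 0.34.

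Of 9 dopamine neuron genes 1 fell and none rose (median −0.19). GFRA1, a receptor for GDNF, stood at 35.6 and 47.3 CPM at 0.7 µM and at 4.50 and 5.55 CPM at 5 µM (−3.04 ± 0.33, edgeR adjusted p = 0.00404), and kept its call without any one library. TH, the enzyme that defines dopamine neurons, had 1 count at 0.7 µM and 8 at 5 µM, too few to be tested. NR4A2, a factor that dopamine neurons need, was at 1.26 and 0.890 CPM and at 0.845 and 0.969 CPM, and DLK1, a surface protein of the Notch ligand family, at 118 and 417 CPM and at 69.7 and 233 CPM; neither passed (−0.19 and −0.80). Among markers of other neuron classes 2 of 8 rose and none fell (median 0.34). GAD1, an enzyme that makes GABA, stood at 1.70 and 11.1 CPM at 0.7 µM and at 27.6 and 57.1 CPM at 5 µM (2.94, edgeR adjusted p = 0.0209; missed without 0.7 µM replicate 1, 2.27). TAL2, a factor of midbrain GABA neurons, stood at 0.194 and 0.0868 CPM and at 1.01 and 1.53 CPM (3.34, edgeR adjusted p = 0.0384; missed without any one of the 4, 2.37 to 4.08). In both genes the 5 µM libraries lay above those at 0.7 µM. The rest of the list did not follow them throughout, with 5 of the 8 values positive and 3 negative. GATA3 (−1.59) and GATA2 (−0.20) did not pass. GAD2 had 4 counts at 0.7 µM and 1 at 5 µM, too few to be tested, and HELT had 0 in all 4 libraries.

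Of 16 netrin and Slit guidance genes 2 fell and none rose (median −0.48). Besides DCC this was SLIT2, a repellent of axons, at 196 and 312 CPM at 0.7 µM and 75.6 and 130 CPM at 5 µM (−1.32, edgeR adjusted p = 0.0274; missed without any one of the 4, −1.40 to −1.24). The other receptors of the 2 families, such as NEO1 (−0.60), ROBO1 (−0.42) and UNC5C (−0.62), did not pass. In the carbonic anhydrases CA4 was the 1 gene of 10 that passed (median −0.04). CA14, another membrane-bound member, stood at 93.1 and 137 CPM and at 110 and 96.9 CPM (−0.15). CA12 was lower in both libraries at 5 µM without passing, at 5.05 and 2.97 CPM and at 0.282 and 1.02 CPM (−2.65, edgeR adjusted p = 0.0819).

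The rule for naming genes also gave members of no list. On the higher side ADRA2C stood at 5.88 and 2.26 CPM at 0.7 µM and at 135 and 56.0 CPM at 5 µM (4.57 ± 0.30, edgeR adjusted p = 0.000412). AC141928.1, a long intergenic noncoding RNA, stood at 1.07 and 1.93 CPM and at 79.2 and 98.9 CPM (5.93 ± 0.45, edgeR adjusted p = 0.000516). Both were far apart between the groups. FAM5B rose by 4.12, and 2 genes of the matrix outside cells, EGFLAM and the protease ADAMTS18, by 4.91 and 4.99, from under 1 CPM in both libraries at 0.7 µM to 3.43 and 18.5 CPM and to 4.11 and 13.6 CPM. ADAMTS18 missed the threshold without 0.7 µM replicate 1 (4.60).

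On the lower side GPC3, a glypican that carries heparan sulphate at the cell surface and binds WNT and hedgehog proteins, stood at 216 and 72.8 CPM at 0.7 µM and at 18.0 and 8.27 CPM at 5 µM (−3.38 ± 0.30, edgeR adjusted p = 0.00134). COL21A1, a collagen, stood at 32.7 and 38.8 CPM and at 2.14 and 3.04 CPM (−3.82, edgeR adjusted p = 0.00261). HTR2C, a serotonin receptor, stood at 10.8 and 31 CPM and at 0.676 and 2.53 CPM (−3.73, edgeR adjusted p = 0.00254). These 3 and MMRN1, a secreted glycoprotein known from platelets and vessels (−4.11), kept their calls without any one library. FGD3, which activates a small GTPase (−4.00), RYR2 (−3.77) and CACNG6, a calcium channel subunit (−3.38), also fell. FGD3 missed the threshold without 0.7 µM replicate 1 (−3.33) or without either library at 5 µM (−4.30 and −3.80). RYR2 did so without 0.7 µM replicate 1 (−2.58) or 5 µM replicate 1 (−2.97), and CACNG6 without 0.7 µM replicate 1 (−3.31).

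Of the markers of other cell types that the cultures could hold, 1 passed, and their part in the results was not tested. In the neural crest list 1 of 9 fell, a count that became 0 without any one of the 4 libraries, and the list summed to 375 and 422 CPM at 0.7 µM and 337 and 333 CPM at 5 µM, most of it NGFR. None of 9 mesenchymal and vascular genes passed (median 0.77). At an unadjusted edgeR p under 0.05, 5 of the 9 were higher (4.91% over all genes) and 1 lower (5.21%). The list summed to 74.9 and 327 CPM at 0.7 µM and 155 and 691 CPM at 5 µM, higher in replicate 2 than in replicate 1 at each concentration. COL6A3, a collagen of that list, stood at 0.437 and 22.5 CPM and at 33.1 and 148 CPM (3.57, edgeR adjusted p = 0.0955). COL1A1, another collagen, stood at 3.35 and 21.1 CPM and at 17.5 and 90.0 CPM (2.19, edgeR adjusted p = 0.0552), so that its groups overlapped. None of 3 endoderm, 4 glial and 4 choroid plexus genes tested passed (medians 0.09, −0.07 and −1.04), and GATA4, which defines endoderm, had 0 counts.

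No cell cycle, hypoxia or p53 gene passed. None of 20 cell cycle genes (median 0.22), 13 hypoxia and glycolysis genes (0.38) or 12 p53 targets (0.40) passed. Their values were mostly positive, in 17, 11 and 11 genes of these lists, against 52.2% of all genes tested. At an unadjusted edgeR p under 0.05, 1, 2 and 4 of them were higher and none lower (4.91% and 5.21% over all genes). MKI67, the Ki-67 antigen, stood at 72.2 and 107 CPM at 0.7 µM and at 73.3 and 86.6 CPM at 5 µM. CDKN1A, the p53 target p21, stood at 24.3 and 147 CPM and at 182 and 306 CPM, apart between the groups without passing (1.76, edgeR adjusted p = 0.145).

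The next concentrations place the 5 µM cultures within the series. Of the 132 genes that rose from 0.7 to 5 µM, 131 had their 3 µM mean between the 2, and so did 77 of the 79 that fell. Since the genes were chosen for that gap, this is a description. At 5 against 3 µM, 0 of 18709 genes passed in edgeR (0%; 527 at an unadjusted p under 0.05, and 33 by DESeq2). At 7.5 against 5 µM, 1221 passed (6.53%), 603 higher (3.22%) and 618 lower (3.3%), but 30 or 5 when replicate 1 or 2 at 5 µM was left out, and 5828 without 7.5 µM replicate 2. This comparison shares the 5 µM libraries with the one against 0.7 µM, and its values stand beside the others as a description.

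At 7.5 against 5 µM, 8 cell cycle genes rose and 1 fell (median 0.76, against 0.06 over all genes), and 6 hypoxia and glycolysis genes fell and none rose (median −1.05). MKI67 stood at 247 and 333 CPM at 7.5 µM. NDRG1, a gene induced by hypoxia, stood at 26.1 and 162 CPM at 5 µM and at 3.48 and 8.24 CPM at 7.5 µM (−3.49). SP5, NOTUM, CA4 and AXIN2, which rose between 0.7 and 5 µM, did not pass here. SP5 stood at 134 and 101 CPM at 7.5 µM (0.34), NOTUM at 25.1 and 18.3 CPM (−0.74), CA4 at 9.92 and 12.8 CPM (−0.42) and AXIN2 at 235 and 270 CPM (0.45). APCDD1 passed again, at 367 and 257 CPM (2.49), as did RSPO1 at 8.51 and 9.23 CPM (2.53) and FZD10 at 58.8 and 38.4 CPM (1.48). In this step 2 of 19 feedback inhibitors of WNT and 2 of 17 nuclear effectors and targets passed as higher. So did 3 of 13 WNT ligands and 5 of 23 members of the receptor list. The effector list and the receptor list each held 1 gene that passed as lower. Over all genes 3.22% passed as higher and 3.3% as lower. ZIC1 (3.56), ZIC4 (3.04) and CNPY1, a regulator of FGF signalling at the boundary (3.48), were among the 5 genes of largest rise with at least 5 CPM at 7.5 µM and no overlap, with RP11-298O21.5 (3.45) and RP11-474D1.3 (3.47). Some genes of lower level rose by more, such as LGR5 at 2.42 and 3.48 CPM at 7.5 µM (4.84, edgeR adjusted p = 0.00993), and HOXB3 had 0 counts at 5 µM and 49 at 7.5 µM. RP11-474D1.3, a long noncoding RNA, had 0 counts at 0.7 µM and 37 at 5 µM, at least 15.0-fold higher. FGFR3, an FGF receptor, fell by 3.38 from 33.2 and 41.8 CPM to 3.46 and 3.72 CPM, and GPR4 (a proton-sensing receptor, −4.94), GRM4 (a glutamate receptor, −4.41) and ICAM5 (an adhesion protein, −3.35) fell with it.

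**Figure D5:**
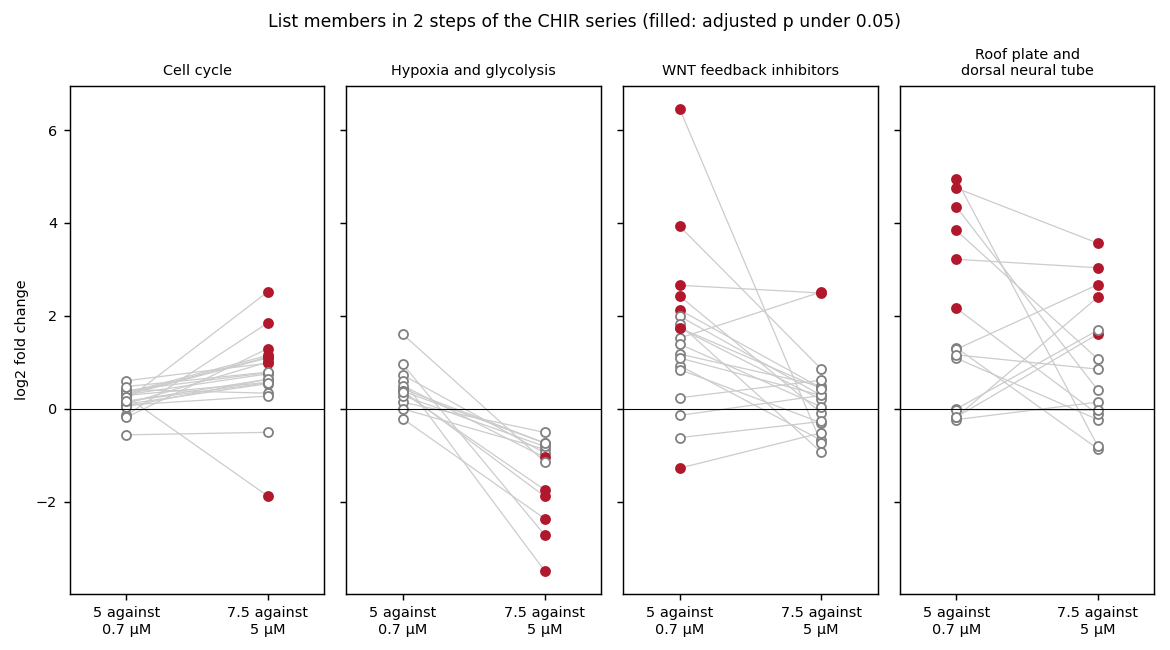
Log2 fold changes of the tested members of 4 lists at 5 against 0.7 µM and at 7.5 against 5 µM, joined by gene; filled red points passed. Cell cycle genes sit near 0 in the first step and 8 rise in the second, 6 hypoxia genes fall in the second, and the median of the WNT feedback inhibitors is 1.52 in the first and 0.29 in the second; both steps use the 5 µM libraries.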

How the data were processed

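RNA-seq of day 11 cultures was analysed from the gene count tables that the authors deposited, 1 for each library, with raw read counts for 57445 genes. The submitters' processing notes name STAR 2.4.2a, HTSeq 0.5.3, featureCounts 1.4.2, DESeq2 1.12.4 and the build hg19; no source used here gives the counting options, the strand or the library kit. Rows that name no gene held 37.4 to 44.3% of the counts and were dropped.

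The 8 day 11 libraries entered 1 fit in edgeR 4.0.16 (R 4.3.3): filterByExpr, TMM, and a robust quasi-likelihood F-test with concentration group and replicate number, leaving 3 residual degrees of freedom. P-values were adjusted by Benjamini and Hochberg over 18709 genes, with a threshold of 0.05. Standard errors were the log2 fold change divided by the square root of F. The replicate number was kept as a block because same-numbered libraries deviated together (r across genes of 0.658 to 0.871 over 6 pairs of groups); the labels give all day 11 libraries of a number 1 code. In simulated data for this comparison (18364 genes), 75 of 100 genes changed 4-fold and 12 of 100 changed 2-fold were recovered. Of the 94 genes called there, 7 had not been changed. The changed genes were drawn only from those above a minimum mean count, so recovery of genes with few counts was not measured.

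Members, lists and the block were chosen with earlier results of these data known. The text names the 12 genes of largest change in each direction among those that passed with 5 CPM or more in the higher group and no overlap, up to 4 passing genes of each list, a set written down by name, and, with the same minimum and no overlap, the 5 of largest change each way at 7.5 against 5 µM; list members that did not pass, and NTN1, SHISA2 and SFRP1, were picked after their values were seen. Some genes that the rule gives are not reported here. Of 459 list members, 457 were found in the files and 364 different genes were tested. Intervals of count ratios are exact, at 95%, and cover counting error only. Exon overlaps were read from GENCODE 29 by gene identifier. The text names them for some genes only. Others that passed also overlap a gene on the other strand, among them LEF1, DKK1, NKD1, WNT4, TCF7L2, SCUBE1, GAD1, IRX1, EGFLAM and ADAMTS18.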

Additional observations from a re-analysis of the deposited data

How the results depend on the processing

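For 5 against 0.7 µM, removing the replicate block left 0 genes (0 higher, 0 lower). With the block kept, 783 genes passed with no filter on low counts (399 higher, 384 lower), 612 by DESeq2 (305 and 307), 743 without the 7.5 µM arm (334 and 409) and 953 in the 4 libraries alone (447 and 506). The share of higher genes among those called, 62.6% in the reported fit, was 51.0%, 49.8%, 45.0% and 46.9% in these, so that lower genes were the more numerous in the last 3. The median log2 fold change of all genes, 0.02, was −0.04 without 5 µM replicate 2. Leaving out 1 library gave 50 to 179 genes (34 to 103 higher, 9 to 76 lower); of the 211 genes, 46 or 103 remained called when replicate 1 or 2 at 0.7 µM was left out, and 60 or 88 for those at 5 µM. DESeq2 kept all 211. With DESeq2 size factors 251 genes passed, and 198 with a minimum of 1 CPM in 2 libraries.

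For 7.5 against 5 µM, edgeR with no block called 0 genes (1168 by unadjusted p), 3136 with no filter, 2777 by DESeq2 and 5 to 5828 with 1 library left out. For 5 against 3 µM, 74 passed with no filter, 33 by DESeq2 and 0 to 1 with 1 library left out. Where an arm is left with 1 library, that library is assumed to vary like the others. The cause of these shifts was not tested. Of 52 named genes that passed, 21 did so without any one library, and 52 kept their direction in every alternative run. With 2 libraries a group and 3 residual degrees of freedom, changes near 2-fold were mostly out of reach.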

Other observations

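Genes outside the lists, chosen after their values were seen, add signalling receptors and transcription factors to the genes that passed between 0.7 and 5 µM. APLNR, the receptor of the peptides apelin and ELABELA, stood at 3.30 and 10.9 CPM at 0.7 µM and at 34.1 and 69.1 CPM at 5 µM (2.98, edgeR adjusted p = 0.00254). DMBX1, a homeobox factor of the early midbrain, stood at 0.923 and 7.33 CPM and at 11.5 and 30.9 CPM (2.76, edgeR adjusted p = 0.0111). FOXQ1, a forkhead factor, stood at 0.0486 and 0.0868 CPM and at 2.70 and 5.36 CPM (5.99, edgeR adjusted p = 0.00267). LYPD1, a membrane-anchored protein that acts on nicotinic receptors, stood at 4.71 and 12.6 CPM and at 84.6 and 87.8 CPM (3.40, edgeR adjusted p = 0.00356). In all 4 genes both libraries at 5 µM were above both at 0.7 µM.

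The inhibitors of the ID family, which block bHLH factors, included 1 gene that rose and 1 that fell, while ID1 and ID2 did not pass. ID3 stood at 49.0 and 48.2 CPM at 0.7 µM and at 117 and 117 CPM at 5 µM (1.27, edgeR adjusted p = 0.0319), and ID4 at 54.5 and 46.4 CPM and at 16.0 and 10.9 CPM (−1.92, edgeR adjusted p = 0.00629). LRP2 (megalin), a large endocytic receptor that takes up hedgehog protein in the ventral forebrain, stood at 306 and 703 CPM and at 82.0 and 154 CPM (−2.06, edgeR adjusted p = 0.00632). EPHA7, an ephrin receptor, stood at 35.6 and 98.9 CPM and at 7.26 and 23.9 CPM (−2.16, edgeR adjusted p = 0.00708). The groups did not overlap in these genes. LMO3 and TSHZ2, 2 transcriptional regulators, fell by 2.18 and 2.51, and APOE, the lipid carrier, rose by 1.44 from 92.4 and 118 CPM to 261 and 306 CPM.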
